A study of Ictidomys tridecemlineatus with 15 samples.

Results

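Bipolar cells were set against late-stage neurogenic progenitors (late-stage N. RPCs) of the same retinas. The cells annotated BC or Late_NG in the deposited cell table were taken from each library of postnatal days 8 (P8) and 12 (P12). Each of these libraries held at least 10 cells of both types. The cells taken were 2800 bipolar cells and 566 late-stage N. RPCs. Together they were 3366 of the 12602 cells of these 4 libraries and of the 53394 cells of the whole series. The library of postnatal day 17 (P17) also held at least 10 cells of both types but was not part of the comparison.

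The series is an scRNA-Seq time course of retinal development in the 13-lined ground squirrel (13LGS, Ictidomys tridecemlineatus), which has a cone-dominant retina. The animals came from captive-bred litters and were not treated, and the labels give no genotype or sex. Retinas were methanol-fixed or flash-frozen before cells or nuclei were prepared, and the labels do not say which was done for which library. Libraries of the same age are called a and b here, because the cell names carry a suffix per library that cannot be matched to the replicate numbers of the labels. Nothing in the labels says that the libraries came from separate animals, so p-values measure the spread between these libraries, which may be technical.

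Bipolar cells are the interneurons that carry the signal of photoreceptors to amacrine and ganglion cells, and in rodents they are among the last retinal neurons to be born. Neurogenic progenitors are the state in which a dividing retinal progenitor turns on proneural genes and commits to making neurons, and at late stages their products include bipolar cells and photoreceptors. Primary retinal progenitor cells (RPCs) keep dividing and, at the end of neurogenesis, become Müller glia. The comparison thus asks which genes separate a late-born neuron from a progenitor that is present in the same tissue at the same age.

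The gene names of the deposited list could not be paired with the rows of the count matrix, so a gene is referred to by the number of its matrix row, with the top row as 1. What each row encodes, whether neighbouring rows share reads, and the known markers of bipolar cells and progenitors are therefore not analysed here. In place of markers, the cells were compared with profiles made from the annotation itself, which cannot show whether a type is rightly named. The authors named the types from clusters of the same counts, so some difference between the types is built in. A random 50% of the cells of both types were compared with mean profiles made from the other cells, and each was given the type whose profile lay closest. Of 1400 bipolar cells, 1132 (80.9%) lay nearest the bipolar profile, 156 (11.1%) nearest that of late-stage N. RPCs and 112 (8%) nearest that of photoreceptor precursors. Of 283 late-stage N. RPCs, 224 (79.2%) lay nearest their own profile, 42 (14.8%) nearest late-stage primary RPCs, 16 nearest photoreceptor precursors and 1 nearest bipolar cells. The annotation and the profiles thus matched for about the same share of both types, and the mismatched cells went mostly from bipolar cells to N. RPCs and from N. RPCs to primary RPCs.

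Library P8a held 444 bipolar cells and 289 N. RPCs, and library P8b held 96 and 33. Library P12a held 987 and 127, and library P12b held 1273 and 117. Bipolar cells were 14.7%, 7.01%, 23.1% and 32.2% of the cells of P8a, P8b, P12a and P12b, and N. RPCs were 9.59%, 2.41%, 2.98% and 2.96%. Both P12 libraries thus had a larger share of bipolar cells than both P8 libraries, whereas the N. RPC share was high in P8a alone. The counts of unique molecular identifiers (UMIs, each standing for 1 captured mRNA molecule) were summed per library and type. The bipolar sums held 276098 to 7044256 UMIs and the N. RPC sums 84310 to 722020 UMIs, with the lowest of both in P8b. Between libraries, 12 cell barcodes were shared. The most abundant row, row 17000, took 8.23% to 13.4% of the bipolar sums and 4.62% to 19.2% of the N. RPC sums. Its extremes among the N. RPC sums were P8b and P12a.

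Bipolar cells held somewhat fewer molecules than N. RPCs at the median. The median bipolar cell had 1852.5 UMIs in P8a, 2301 in P8b, 2125 in P12a and 3797 in P12b. The median N. RPC had 2072, 2483, 2250 and 4769 UMIs in the same libraries. Bipolar cells were thus lower in 4 of 4 libraries, by a mean log2 difference of -0.17 ± 0.11 (SD, n = 4 libraries), with p = 0.13 in a two-sided exact permutation test that flips signs over libraries, the smallest p that 4 libraries allow. With means in place of medians the difference turned to 0.15. The richest bipolar cell had 106147 UMIs, against 20292 for the richest N. RPC. Of the bipolar cells 498, and of the N. RPCs 29, exceeded 2 times the median UMIs of the same type in the same library.

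At equal depth, bipolar cells showed more genes per cell. When every cell was thinned to 1000 UMIs, the median bipolar cell had 641, 672.5, 671 and 660 detected rows in P8a, P8b, P12a and P12b, and the median N. RPC had 592, 666, 599 and 587. The mean difference was 50.1 ± 31.1 rows (SD, n = 4), bipolar cells were higher in 4 of 4 libraries, and the same exact permutation test again gave p = 0.13. The difference was 6.5 rows in P8b and 49 to 73 rows in the other libraries. In the P17 library, which entered no fit, the medians were 683 rows in bipolar cells and 630 in N. RPCs.

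Expression differed widely between the types. Of 7284 gene rows with enough UMIs to test, 2090 (28.7%) differed at an adjusted p below 0.05 in edgeR's quasi-likelihood test with the library as a block. They divided evenly, with 1046 rows (14.4%) higher in bipolar cells and 1044 (14.3%) higher in N. RPCs. The median log2 difference over all rows tested was 0.004. When each cell was given the same weight (the mean of the cells' CPM, a cell's UMIs scaled to a total of 1000000) in place of summing, 950 rows passed and 608 of them (64.0%) were higher in bipolar cells, with a median over all rows shifted to 0.19. The split also moved with the test and the filter. On the same rows and sums limma-voom called 954 rows higher in bipolar cells and 1272 higher in N. RPCs, and without a filter edgeR called 1666 and 991.

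The fitted difference was at least 2-fold for 593 of the rows higher in bipolar cells and for 437 of the rows higher in N. RPCs, and its median size was 1.10 and 0.88 on the log2 scale. Ratios of the pooled sums, which weight the libraries by their UMIs, were further apart. The largest bipolar sum was that of P12b (7044256 UMIs) and the largest N. RPC sum that of P8a (722020 UMIs). Pooled ratios therefore mix type with age and do not keep the pairing of the types within a library. Pooled over the 4 libraries, the level in bipolar cells was at least 2 times that in N. RPCs for 761 of the 1046 rows and at least 4 times for 256. The level in N. RPCs was at least 2 times that in bipolar cells for 374 of the 1044 rows higher there and at least 4 times for 130. The median pooled ratio was 2.59 for the rows higher in bipolar cells and 1.69 for the rows higher in N. RPCs. Of the rows higher in bipolar cells, 3 had no UMI in the N. RPCs and were counted at a floor of 3 UMIs over the group, and a further 19 had 1 to 3 UMIs. No row higher in N. RPCs had fewer than 4 UMIs in bipolar cells, whose sums were deeper.

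The direction also varied with abundance. Rows were classed by their mean level in the type where it was higher. Among the 803 rows of at least 200 CPM, 424 (52.8%) were called. Of these, 268 were higher in N. RPCs and 156 in bipolar cells. Among the 3667 rows under 50 CPM, 682 (18.6%) were called, 377 of them higher in bipolar cells. Low rows carry less counting information, so the share called is not comparable between these classes.

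**Figure D1:**
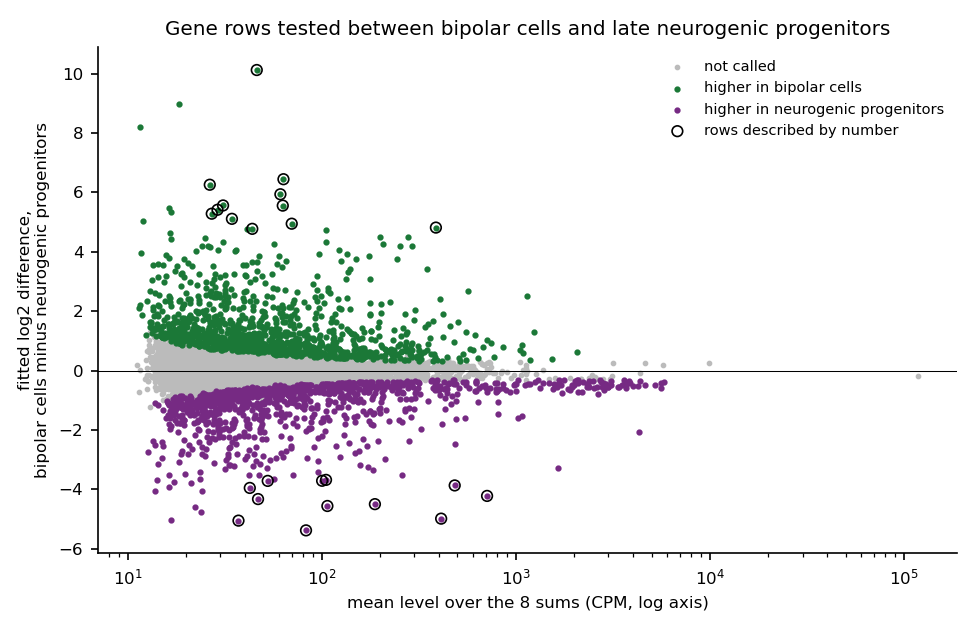
Fitted log2 difference between bipolar cells and late-stage N. RPCs (y axis) against the mean level of each of 7284 rows over the 8 sums (x axis, CPM, log scale). Green points are the 1046 rows higher in bipolar cells, purple points the 1044 rows higher in N. RPCs and open circles the 24 rows described by number. Called rows at the highest levels lie mostly below 0, and the points above 8 are rows without UMIs in N. RPCs, whose fitted values depend on the fit's prior count.

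Among the 7284 rows, the levels of the 4 bipolar sums and the 4 N. RPC sums did not overlap for 1108 (15.2%). Of all rows, 655 (8.99%) were called, did not overlap, went the same way in 4 of 4 libraries and reached a mean of 50 CPM in the higher type, 369 (5.07%) higher in bipolar cells and 286 (3.93%) higher in N. RPCs. The 12 of these with the largest fitted difference in each direction are described here by number. They were selected for their difference, so their values describe its form and are no further evidence for it.

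The leading rows of bipolar cells were close to absent from N. RPCs. Row 1717 had 66.7, 106, 116 and 80.4 CPM in the bipolar sums of P8a, P8b, P12a and P12b, and no UMI in any N. RPC sum. Its 1065 UMIs in bipolar cells against 0 among the 1685291 UMIs of N. RPCs put it at least 52.7-fold higher, with a count of 0 taken as up to 3 UMIs over the group. The two-sided 95% counting interval used for the other rows began at 42.8. Row 9607 had 96.4, 89.2, 214 and 101 CPM in bipolar cells and 0, 0, 7.07 and 0 CPM in N. RPCs. The pooled levels gave a ratio of 116 with a 95% counting interval of 32.0 to 955, wide because N. RPCs held 2 UMIs. Row 8099, with 894 UMIs against 1, had a ratio of 133 (interval 23.8 to 5245), and row 24236, with 1842 UMIs against 3, had 91.1 (31.1 to 442). The groups did not overlap for any of these rows, and the order of such ratios is not resolved, since their intervals overlap.

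Row 24255 was the most abundant of the 12. Its bipolar sums had 674, 484, 1112 and 706 CPM, and its N. RPC sums 7.57, 10.97, 74.3 and 27.3 CPM. The means were 744 ± 264 CPM and 30.02 ± 30.7 CPM (SD, n = 4), and the fitted log2 difference was 4.81 with a standard error of 0.23 (edgeR adjusted p = 3.43e-13). P12a was the highest library in both types. In single cells thinned to equal depth, this row was found in a minority of the bipolar cells. Cells pooled over libraries are not replicates, so the intervals given here cover counting error only. At 1000 UMIs per cell, 1058 of 2764 bipolar cells (38.3%, 95% Wilson interval 36.5 to 40.1) held at least 1 UMI of it. Among N. RPCs, 15 of 564 did (2.66%, 1.62 to 4.34). The share was 2% in amacrine cells, 2.72% in Müller glia, 1.48% in ganglion cells, 1.13% in late-stage primary RPCs and 0.781% in horizontal cells, whereas cones had 8.46% and photoreceptor precursors 5.97%. The N. RPC share was thus within the range of types with few such cells, and whether it comes from free RNA was not tested.

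The other rows of this group were lower in level and equally one-sided. Row 12380 had 74.1, 75.4, 158 and 184 CPM in bipolar cells, and row 32040 had 52.8, 27.4, 72.0 and 82.7 CPM. Row 26325 had 38.0, 48.0, 92.6 and 164 CPM, row 4446 had 31.5, 48.0, 69.2 and 122 CPM, and row 23517 had 20.4, 41.2, 32.9 and 110 CPM. Row 10705, at 59.3, 44.6, 75.4 and 49.4 CPM, differed least between libraries. For these 6 rows the N. RPC sums held between 2 and 5 UMIs each in total. Within bipolar cells, rows 9607, 8099, 24236, 32040, 12380, 4446, 24255 and 26325 were higher in both P12 libraries than in both P8 libraries. No test was made of this, and the share of all rows tested with the same order was not counted. It is therefore not read as a trait of these rows.

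Row 25695 was uneven between libraries. Its bipolar sums had 58.4, 99.4, 64.9 and 312 CPM, so P12b stood far above the other libraries, while its N. RPC sums had 3.03, 10.97, 7.07 and 3.89 CPM. The types did not overlap (fitted log2 difference 4.94, SE 0.35, edgeR adjusted p = 1.66e-10), and without P12b the row was still called, with a difference of 3.67. Row 23517 was also highest in P12b, and row 9607 in P12a.

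The leading rows of N. RPCs reached higher levels, and each had some UMIs in bipolar cells, whose part from free RNA was not tested. Row 25861 was the highest, with 1332, 384, 1740 and 1826 CPM in the N. RPC sums of P8a, P8b, P12a and P12b and 161, 151, 41.5 and 45.6 CPM in the bipolar sums. Row 7982 had 948, 450, 1333 and 804 CPM against 110, 141, 53.8 and 31.1 CPM. Row 25863 had 742, 340, 927 and 1117 CPM against 44.5, 89.2, 16.9 and 19.4 CPM. In each of these rows P8b had the lowest N. RPC level, and the bipolar levels of both P8 libraries lay above those of both P12 libraries. The N. RPC sum of P8b rests on 33 cells and 84310 UMIs.

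The pooled ratios of these rows, N. RPCs over bipolar cells, were 23.1 for row 25861 (95% counting interval 21.2 to 25.2), 17.5 for row 7982 (15.9 to 19.3) and 33.9 for row 25863 (29.7 to 38.7). The fitted log2 differences were -4.22 for row 25861 (SE 0.37, edgeR adjusted p = 4.02e-09) and -4.99 for row 25863 (SE 0.32, edgeR adjusted p = 2.89e-11). Counting intervals cover counting error only. They are narrower than the spread between libraries, since the N. RPC level of row 25861 varied from 384 to 1826 CPM. The pooled ratio also hides how the libraries differ. Row 25861 had 384 against 151 CPM in P8b and 1826 against 45.6 CPM in P12b.

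Row 12414 had 159, 87.7, 233 and 146 CPM in N. RPCs and 12.04, 20.6, 3.08 and 1.51 CPM in bipolar cells, with a pooled ratio of 42.8 (30.6 to 61.3), an interval that overlaps that of row 25863. Its difference also changed with age, by -3.00 (SE 0.57, edgeR adjusted p = 0.000432). Row 16859 had 108, 43.9, 219 and 424 CPM against 22.2, 20.6, 7.998 and 8.53 CPM. In both rows bipolar cells of the P8 libraries held more than those of the P12 libraries. Row 32316 had 247, 395, 350 and 409 CPM in N. RPCs (mean 350 ± 73.3, SD, n = 4) and 13.9, 61.7, 11.1 and 14.3 CPM in bipolar cells, of which P8b was the highest.

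Of the rest, row 18206 had 36.3 to 127 CPM in N. RPCs and 1.54 to 17.2 CPM in bipolar cells, and row 13659 had 65.8 to 103 CPM against 3.38 to 17.2 CPM. Row 21192 had 65.8 to 106 CPM against 3.999 to 7.41 CPM, and row 2810 had 71.2 to 117 CPM against 5.23 to 17.2 CPM. Row 18157 had 143 to 222 CPM against 11.1 to 37.7 CPM, and row 24105 had 140 to 233 CPM against 9.63 to 34.3 CPM. For 5 of these 6 rows the highest bipolar level was that of P8b, the exception being row 21192. P8b was also the library with the fewest cells of both types, and the part of that in these values was not tested.

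**Figure D2:**
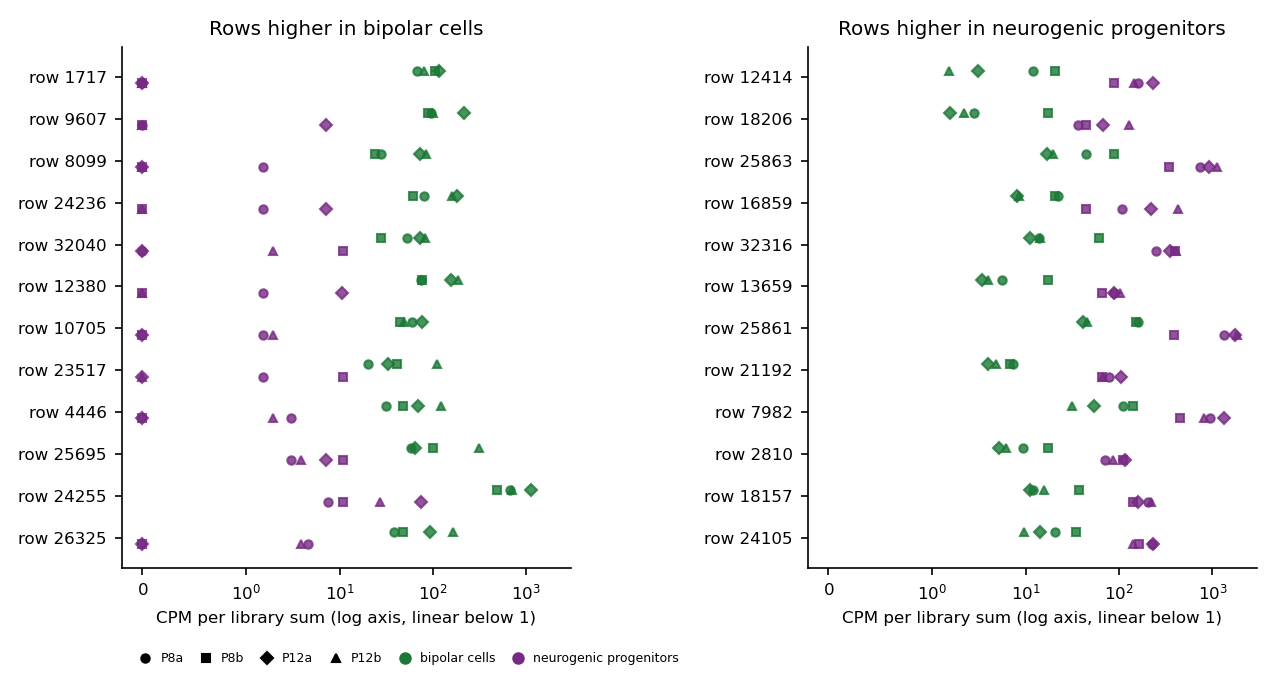
Level of each of the 24 described rows in the 8 sums (x axis, CPM, log scale that turns linear below 1), with the 12 rows higher in bipolar cells on the left and the 12 rows higher in late-stage N. RPCs on the right. Green symbols are bipolar cells, purple symbols N. RPCs, and the symbol shape gives the library. The 2 colours do not overlap in any row, and N. RPC values lie at or near 0 in most rows of the left panel.

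The levels in the other annotated types showed how far these rows were particular to either type. Levels were pooled over the 4 libraries for the 9 types with at least 50 cells. Cones and Müller glia came from 3 of these libraries, and pooled levels mix type with age. Of the 1046 rows higher in bipolar cells, 380 (36.3%) had their highest level in bipolar cells, against 12.8% of all rows tested, a share that the choice of the rows raises by itself. For 274 (26.2%) the highest type was ganglion cells, for 139 (13.3%) cones, for 117 (11.2%) horizontal cells and for 111 (10.6%) amacrine cells. Among all rows tested these shares were 20.9%, 14.2%, 15.5% and 7.72%, so cones and horizontal cells were not above them. Müller glia were highest for 14 (1.34%), photoreceptor precursors for 8 (0.765%) and late-stage primary RPCs for 3 (0.287%). The shares among all rows tested were 8.55%, 7.21% and 7.36%.

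Rows higher in N. RPCs were shared in another way. Of these 1044 rows, 246 (23.6%) were highest in late-stage N. RPCs themselves, against 5.77% of all rows tested. The choice of the rows raises this share too by itself. Müller glia were the highest type for 270 (25.9%, against 8.55% of all rows) and late-stage primary RPCs for 213 (20.4%, against 7.36%). None was highest in bipolar cells, as their choice would have it.

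The leading rows followed these lines. Among the 12 rows of bipolar cells, 11 were highest in bipolar cells, the exception being row 25695 with 292 CPM in ganglion cells and 226 in bipolar cells. Their median level was 119 CPM in bipolar cells, 19.8 in photoreceptor precursors, 17.6 in cones, 13.97 in amacrine cells, 2.19 in late-stage primary RPCs and 1.48 in N. RPCs. Photoreceptor precursors and cones exceeded N. RPCs in 12 of 12 rows. Row 26325 was also present in ganglion cells (115 CPM) and amacrine cells (112 CPM), next to 136 CPM in bipolar cells, and row 9607 had 48.7 CPM in cones, next to 137.

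The 12 rows of N. RPCs fell into 2 patterns. Rows 12414, 25863, 16859, 32316, 25861, 7982 and 18157 were highest in N. RPCs. Rows 18206, 13659, 21192, 2810 and 24105 were highest in Müller glia, with late-stage primary RPCs next and N. RPCs at rank 3 or 4 of the 9 types. Row 24105 had 604 CPM in Müller glia, 425 in late-stage primary RPCs and 179 in N. RPCs. Row 25861 was the opposite, with 18.2 CPM in Müller glia, 89.0 in late-stage primary RPCs and 1391 in N. RPCs, and row 16859 had 3.44, 8.15 and 211 CPM. Photoreceptor precursors held 270 CPM of row 25861 and 255 CPM of row 25863, and they exceeded bipolar cells in 12 of 12 rows. Row 32316 hardly separated N. RPCs (301 CPM) from Müller glia (296 CPM), primary RPCs (284 CPM) and precursors (267 CPM), whereas bipolar cells had 15.2 CPM.

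**Figure D3:**
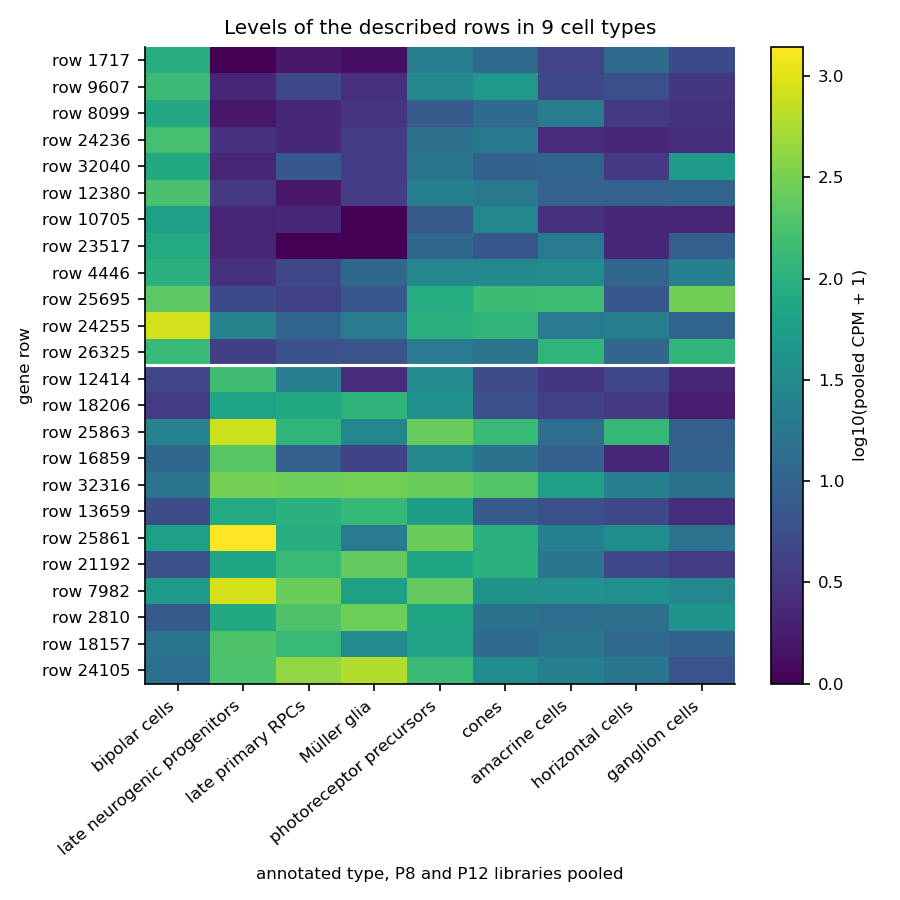
Pooled level of the 24 described rows (y axis) in the 9 annotated types with at least 50 cells (x axis), shown as log10(CPM + 1) by colour, P8 and P12 libraries together. The upper 12 rows are bright in bipolar cells and dark in N. RPCs, primary RPCs and Müller glia, and the lower 12 rows divide into 7 that are brightest in N. RPCs and 5 that are brightest in Müller glia.

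The same rows were followed to ages outside the comparison, in CPM of each library's sum without further scaling. Row 9607 in bipolar cells went from 94.2 to 234 CPM at P8 and P12 to 350 CPM at P17 and 669 CPM at P21. Row 10705 was at 47.1 to 82.3 CPM at P8 and P12, at 200 CPM at P17 and at 968 CPM at P21, where cones held 80.1 CPM. Rows 12380 and 26325 reached 447 and 440 CPM at P21. Row 1717 went the other way, from 67.9 to 127 CPM at P8 and P12 to 46.5 CPM at P17 and 37.2 CPM at P21. Row 25695 was also below its earlier range at P21, with 59.4 to 322 CPM at P8 and P12, 82.9 CPM at P17 and 41.5 CPM at P21. Rows 23517 and 4446 had 140 and 117 CPM at P17 and 68.3 and 98.6 CPM at P21. Row 24255 did not rise steadily, with 511 to 1215 CPM at P8 and P12, 537 CPM at P17 and 693 CPM at P21. P17 and P21 are 1 library each, so these steps have no replicate check.

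In N. RPCs leading rows were already present when bipolar cells were few. At P4, when 393 cells were N. RPCs and 3 were bipolar cells, row 25861 had 1539 CPM, row 25863 had 880 CPM and row 7982 had 601 CPM in N. RPCs. The 12 rows together took 0.391% of the N. RPC UMIs at P4, 0.387% and 0.248% in P8a and P8b, 0.524% and 0.486% in P12a and P12b, and 0.718% at P17. In bipolar cells the same rows took 0.0429% and 0.0648% at P8, 0.0190% and 0.0168% at P12, 0.0159% at P17 and 0.00777% at P21. Row 25861 had 22.4 CPM in bipolar cells at P17 and 0.653 CPM at P21. The 12 rows of bipolar cells took 0.121% to 0.247% of bipolar UMIs at P8 and P12 and 0.396% at P21.

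Counted cell by cell, nearly every N. RPC held a UMI of the 12 N. RPC rows, and part of the bipolar cells held none of the bipolar rows. In P8a, 3.81% of N. RPCs had no UMI of the 12 N. RPC rows, and in P8b, P12a and P12b no cell lacked them. A count of 0 among 33, 127 and 117 cells allows shares of up to 9.09%, 2.36% and 2.56%. Other types held these rows as well: cells without any were 5.42%, 10%, 2.47% and 1.45% of the late-stage primary RPCs of P8a, P8b, P12a and P12b. Among photoreceptor precursors they were 12.7%, 0.149%, 22.2% and 7.45% in the same order. Bipolar cells without any were 57.0%, 39.6%, 66.7% and 62.4% of the bipolar cells of P8a, P8b, P12a and P12b. Bipolar cells without a UMI of the 12 bipolar rows were 30.2%, 17.7%, 11.7% and 4.48% in the same order, whereas N. RPCs without one were 94.8%, 90.9%, 81.1% and 88.9%. The share of bipolar cells without a bipolar row was lowest in P12b, whose cells were the deepest. At 1000 UMIs per cell, row 25861 was found in 357 of 564 N. RPCs (63.3%, 95% Wilson interval 59.2 to 67.2) and in 5.54% of bipolar cells. It was found in 22.3% of photoreceptor precursors, 5.86% of late-stage primary RPCs, 2.66% of ganglion cells and 1.77% of Müller glia.

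The P17 library, which was not used to choose the rows, held 2096 bipolar cells and 51 N. RPCs. There, no N. RPC lacked the 12 N. RPC rows, and 75.3% of the bipolar cells did. With 0 of 51, a true share of up to 5.88% could not be told from 0. The median N. RPC spent 0.704% of its UMIs on them (10th to 90th percentile 0.425% to 1.07%), while the 90th percentile of bipolar cells was 0.0507%. Bipolar cells without a bipolar row were 5.39%, and N. RPCs without one were 86.3%.

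**Figure D4:**
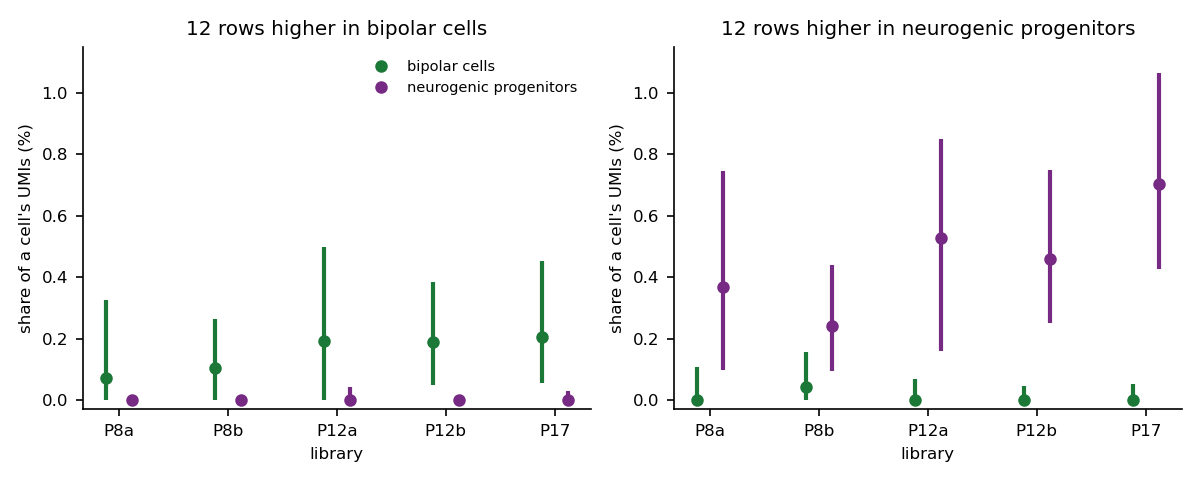
Share of a cell's UMIs (y axis, percent) that came from the 12 rows higher in bipolar cells (left) and the 12 rows higher in late-stage N. RPCs (right), by library (x axis). Dots are medians over cells and lines run from the 10th to the 90th percentile, green for bipolar cells and purple for N. RPCs. In the right panel the lines of the 2 types lie apart in P12a, P12b and P17 and meet in P8a and P8b.

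Most differences recurred at P17 in the same direction. Of the 1046 rows higher in bipolar cells, 1001 (95.7%) were higher in bipolar cells at P17, and of the 1044 rows higher in N. RPCs, 804 (77.0%) were higher in N. RPCs. The median P17 difference over all rows tested was 0.28 on the log2 scale, so that library leaned towards bipolar cells as a whole. Taken relative to this median the shares were 89.2% and 89.2%, against 61.3% for the 5194 rows that were not called. All 24 described rows kept their direction, with median P17 differences of 5.69 for the bipolar rows and -5.01 for the N. RPC rows. P17 is a single library, and no test was made of it. Its types were also named from clusters of the same counts, so some recurrence is built in.

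The P8 libraries and the P12 libraries, which share no cells, were also fitted apart. At P8, 712 of 6677 rows (10.7%) were called, and at P12, 2824 of 11182 rows (25.3%). They had 635 rows in common, 89.2% of the P8 list and 22.5% of the P12 list, and 634 of these went the same way. Only 2026 of the P12 calls had been tested at P8. Of the P12 calls tested at P8, 1881 of 2026 (92.8%) had the same direction at P8, against 73.3% of all rows tested in both. Both bipolar sums were deeper at P12, whereas the largest N. RPC sum was that of P8a, and more rows were tested at P12. The lengths of the lists are therefore not compared.

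Whether the difference between the types changed with age was tested directly, as the interaction of type and time point. It changed for 46 of 7284 rows (0.632%) at an adjusted p below 0.05 in edgeR, with 563 rows at an unadjusted p below 0.05, 330 of them more negative at P12. For 40 of the 46 the difference was more negative at P12, a shift towards N. RPCs. Of the 46, 33 were also called higher in N. RPCs, and all 33 were more strongly so at P12. A further 5 were called higher in bipolar cells, 4 of them more so at P12. This fit has 2 residual degrees of freedom. Without library P12b, 10 rows were called, without P12a 15, and without P8a 94, of which 56 were more negative and 38 more positive at P12.

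The rows with the smallest p were rows 25861, 7982, 14914 and 25863, all of them higher in N. RPCs. The values at P8 and at P12 come from separate fits of each time point, and the change comes from the interaction fit. The change is therefore not their exact difference. For row 25861 the fitted log2 difference was -2.50 at P8 and -5.35 at P12, with a change of -2.70 (SE 0.25, edgeR adjusted p = 2.16e-15). For row 7982 it was -2.61 and -4.65, with a change of -1.92 (SE 0.24, edgeR adjusted p = 7.94e-09). For row 25863 it was -3.35 and -5.82, with a change of -2.31 (SE 0.31, edgeR adjusted p = 1.83e-08). In these rows each bipolar level at P12 was under each bipolar level at P8, and the lowest N. RPC level was that of P8b.

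Row 14914, the remaining row, had 574, 230, 729 and 311 CPM in the N. RPC sums of P8a, P8b, P12a and P12b and 99.1, 82.3, 36.3 and 16.0 CPM in the bipolar sums. Its difference went from -2.25 to -4.29 in the separate fits, with a change of -1.96 in the interaction fit (SE 0.26, edgeR adjusted p = 1.83e-08). N. RPC levels overlapped between the time points in this row and in row 7982, whereas the bipolar levels did not overlap in any of the 4 rows. Bipolar cells held 7.99 CPM of row 14914 at P17, scaled as in the fit.

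Other measures of the same libraries are given beside this change. N. RPCs were 9.59% of the cells of P8a, 2.41% of P8b, 2.98% of P12a and 2.96% of P12b. The share in P8b was thus near those of the P12 libraries, and the shares did not divide by time point. Bipolar cells had 164, 159, 45.4 and 47.0 CPM of row 25861 in P8a, P8b, P12a and P12b, without further scaling. On the same scale late-stage primary RPCs had 104, 130, 50.6 and 55.1 CPM, and ganglion cells 13.8, 34.3, 10.5 and 13.2 CPM. Cones had 190, 101 and 85.3 CPM in P8a, P12a and P12b. Late-stage primary RPCs were thus also lower in both P12 libraries, and so were cones, which were measured in P8a alone at P8. For ganglion cells P8a (13.8 CPM) and P12b (13.2 CPM) hardly differed. Amacrine cells, horizontal cells and Müller glia were not compared by library. Photoreceptor precursors had 279, 293, 357 and 184 CPM, which overlapped between the time points. When all 8 sums were thinned to 84310 UMIs, none of the 4 rows was called. The fitted changes were then -2.56 for row 25861 (SE 0.56, edgeR adjusted p = 0.134), -1.96 for row 7982, -1.91 for row 14914 and -2.19 for row 25863, close in size to those of the full sums. The part of depth, cell shares and free RNA in the change was not tested further.

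**Figure D5:**
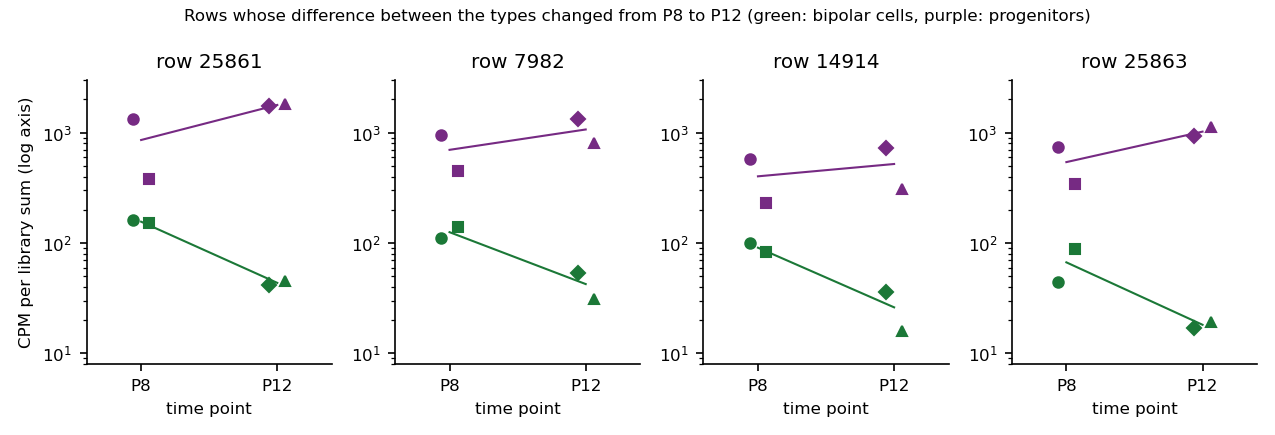
Level (y axis, CPM, log scale) of the 4 rows with the smallest p for a change of the difference, by time point (x axis). Points are library sums, green for bipolar cells and purple for late-stage N. RPCs, with the a library on the left of each pair, and lines join the means of the 2 libraries of each time point. The green lines fall from P8 to P12 in all 4 rows, and the P8b N. RPC sum is the lowest purple point in each.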

How the data were processed

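Libraries of whole retinas were made with the 10x Chromium 3′ v3.1 kit. The counts used were the UMI counts per gene row and cell that the authors deposited as 1 matrix, whole numbers without normalization, with the cell table that names each cell, its time point and its type (its 3 embedding columns were not used). Per the study's methods, the authors ran CellRanger 3.1.0 on the HiC_Itri_2 genome, joined libraries with CellRanger aggr 3.1.0 and named clusters in Seurat 4.0.4 (SCT workflow) from FindAllMarkers genes. Not given in the sources used here are filters on cells, doublet removal and any depth equalization by aggr. The gene list had 30265 entries without row numbers against 34181 matrix rows, so no row was named and the planned marker and pathway lists were not used.

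The library is the time point plus the suffix of the cell name. Counts of each library's bipolar cells and late-stage N. RPCs were summed (8 sums of 84310 to 7044256 UMIs), where the study tested single cells. Rows passing filterByExpr were fitted with edgeR 4.0.16 (R 4.3.3; TMM scaling, glmQLFit, glmQLFTest) with library as a block, and Benjamini-Hochberg adjusted p below 0.05 was called. The pairing comes from the design: both types of a pair were in the same library. A second fit added the interaction of type and time point. CPM are UMIs scaled to 1000000 per TMM-scaled sum, unless said to be pooled or unscaled. Rows described by number were called, did not overlap, went the same way in 4 of 4 libraries and had a mean of at least 50 CPM in the higher type; the 12 with the largest fitted difference were taken in each direction, and the 4 with the smallest p for the interaction. The members, lists and tests were chosen with earlier results of these data known.

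Cell values were compared over 4 libraries by a two-sided exact permutation test that flips the sign of each library's difference. Intervals are 95% Wilson intervals for shares and exact intervals for ratios of counts, and with the floor of 3 UMIs for a count of 0 they cover counting error only. No doublet caller was run; instead the fit was repeated without the 527 cells (15.7%) above 2 times the median UMIs of their library and type. Types with fewer than 50 cells (30 rods, 6 early-stage neurogenic and 2 early-stage primary progenitors) were left out of levels by type, a minimum set after the data were seen. The fitting script was tested on simulated data with known changes. Alternatives were DESeq2 1.42.0 size factors and test, limma 3.58.1 voom, other filters, no block, each library left out, each time point alone, sums thinned to 84310 UMIs, equal cell numbers and means of cell CPM.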

Additional observations from a re-analysis of the deposited data

Results flagged for a closer look

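Row 9607 had 214.1 CPM in the bipolar cells of P12a, far from the other 3 libraries (89.2 to 101 CPM) for the range of the group. Row 25695 had 311.9 CPM in the bipolar cells of P12b, likewise apart from the other 3 (58.4 to 99.4 CPM). These were 2 of 26 groups of 4 sums examined, and chance alone marks about 1 group in 20. The difference between the types changed from P8 to P12 for 46 rows by the edgeR interaction test. The changes of the difference (log2, P12 minus P8) were -2.70 for row 25861, -1.92 for row 7982, -1.96 for row 14914 and -2.31 for row 25863, and with thinned sums they were -2.56, -1.96, -1.91 and -2.19, with none past the threshold.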

How the results depend on the processing

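The count of rows that differ between the types (2090) moved by more than 1.5 times under several alternatives, and no row called both there and in an alternative changed direction. DESeq2's test called 1296, all of them among the 2090. A stricter filter called 682 of the 1527 rows it kept, and the sums thinned to 84310 UMIs called 293 of 1420, where fewer rows and UMIs were tested. Means of cell CPM called 950 and the P8 libraries alone 712. With no replicate block, which drops the pairing of the types within a library, 888 rows were called, all of them among the 2090. Leaving out each library in turn gave 1155 (without P12b) to 2653 (without P8b) rows. With no filter, 2657 of 25591 rows were called, 62.7% of them higher in bipolar cells, and limma-voom called 2226. For the change from P8 to P12 (46 rows), a stricter filter gave 19 rows, no filter 30, and thinned sums 0 by edgeR with 110 rows at an unadjusted p below 0.05. Leaving out each library gave 10 to 94 rows. The difference in UMIs per cell reversed to 0.154 with means (exact sign-flip p = 0.25), and ranged from -0.200 to -0.118 without each library. The difference in genes per cell ranged from 42.5 to 64.7 rows without each library, and was 23.9 rows at 500 UMIs (exact sign-flip p = 0.25, with N. RPCs higher in P8b) and 73.4 rows at 1500 UMIs. At P17, 94.5% of the calls of at least 2-fold kept their direction, against 86.4% of all calls. The cause of these moves was not tested. The 24 described rows kept their direction and call wherever an alternative tested them (348 values), but the stricter filter and the thinned sums left most of them untested. The N. RPC sum of P8b (84310 UMIs) limits what low rows can show.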

Other observations

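Row 25861, the most abundant of the 12 described rows higher in late-stage N. RPCs, was followed through the series in CPM of each library's sum. The P1 cells of the series were not included. In early-stage N. RPCs it had 159 to 254 CPM in the libraries from E18 to E26 and 835 CPM at P4. Photoreceptor precursors had 990 and 961 CPM in both E21 libraries, 408 and 476 CPM at E24, 444 and 529 CPM at E26, 348 CPM at P4 and 184 to 357 CPM at P8 and P12. Late-stage primary RPCs had 50.6 to 130 CPM at P8 and P12, and ganglion cells stayed between 1.71 and 47.5 CPM in every library followed. Late-stage N. RPCs had 378 CPM at E26 (library E26a alone), 1539 CPM at P4, 415 to 1635 CPM at P8 and P12 and 2013 CPM at P17. P4, P17, P21 and E18 are 1 library each, and no test was made.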
